A study of Homo sapiens with 18 samples.

Results

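The genes described here are 44 interferon-stimulated genes, taken as a named list from 23250 gene symbols and followed through RNA-seq of SUDHL6, Farage and SUDHL4, established human lines of diffuse large B cell lymphoma. Cells of each line were given 79-6.1085, an inhibitor of the transcriptional repressor BCL6, at 10 µM for 12 h, or DMSO, its vehicle, for 12 h. Each of the 6 groups had 3 libraries. The inhibitor is known here only by its code name, the labels name no added interferon, and nothing in the labels tells separate cultures from repeat libraries, so the p-values cover a spread that may be technical. All 44 genes were found in every library, DDX58 (RIG-I) under that older symbol.

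Interferons are secreted cytokines. Type I interferon binds IFNAR1 and IFNAR2 and activates the kinases JAK1 and TYK2, which phosphorylate STAT2. STAT2 and IRF9 act in the complex ISGF3, which binds the interferon-stimulated response element (ISRE) in promoters of antiviral genes, while the response to interferon gamma works through the gamma-activated site (GAS). Many tumour lines keep part of this programme active without added interferon, and several of its genes (STAT2, IRF9, IRF7, the sensors) are themselves targets of it.

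The promoter letters show a motif that many of the members, but not all, share. RefSeq promoter windows, from 250 bases before to 50 bases after a gene's start on GRCh38.p14, were found for 35 of the 44 members, 46 windows in all; MX2, IFIT2, OAS2, DHX58, GBP2, OASL, TRIM22, USP18 and IRF7 had no entry. The ISRE core (GAAA, then any 2 bases, then GAAA), searched on both strands with overlapping matches kept, was in 26 of the 46 windows, covering 23 of the 35 members, against 3.57% of all 35116 windows. The longer form is the same core followed directly by CT and so always a core match too. It was in 15 of the 46 windows (13 members) against 0.273% of all windows. The GAS form TTCNNNGAA was in 10 of the 46 windows (10 members) against 7.66%. TTCCTAGAA, a form of the BCL6 motif that is also a TTCNNNGAA match, was in 0 of the 35 members and in 0.373% of all windows. A match is a description of letters in these windows. The 4 windows below are of members on which the results turn: ISG15, which fell in all 3 lines, PARP14, which fell further in SUDHL4 than in Farage, GBP4, read in Farage but not in SUDHL6, and IRF1, which rose in SUDHL6 and SUDHL4. They are written 5′ to 3′ along the gene, with ISRE core and GAS matches in capitals. All 4 hold a match, whereas XAF1, the member with the largest fall, had neither form in its 2 windows.
ISG15: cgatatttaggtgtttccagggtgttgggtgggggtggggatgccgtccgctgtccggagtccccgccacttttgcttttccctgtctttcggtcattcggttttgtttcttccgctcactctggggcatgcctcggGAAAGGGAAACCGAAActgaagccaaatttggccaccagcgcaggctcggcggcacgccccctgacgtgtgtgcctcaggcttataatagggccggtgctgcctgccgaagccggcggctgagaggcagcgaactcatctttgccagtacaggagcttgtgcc
PARP14: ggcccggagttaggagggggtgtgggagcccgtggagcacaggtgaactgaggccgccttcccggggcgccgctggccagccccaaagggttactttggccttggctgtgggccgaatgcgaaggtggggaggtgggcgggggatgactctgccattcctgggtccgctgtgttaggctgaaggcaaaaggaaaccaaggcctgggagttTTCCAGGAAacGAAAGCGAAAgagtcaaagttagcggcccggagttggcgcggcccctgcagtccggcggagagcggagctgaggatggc
GBP4: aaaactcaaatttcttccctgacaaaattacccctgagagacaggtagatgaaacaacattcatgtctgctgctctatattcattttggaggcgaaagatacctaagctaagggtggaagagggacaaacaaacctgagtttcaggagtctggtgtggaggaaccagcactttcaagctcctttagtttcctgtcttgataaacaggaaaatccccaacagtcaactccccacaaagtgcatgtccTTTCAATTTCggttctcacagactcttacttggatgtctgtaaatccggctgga
IRF1: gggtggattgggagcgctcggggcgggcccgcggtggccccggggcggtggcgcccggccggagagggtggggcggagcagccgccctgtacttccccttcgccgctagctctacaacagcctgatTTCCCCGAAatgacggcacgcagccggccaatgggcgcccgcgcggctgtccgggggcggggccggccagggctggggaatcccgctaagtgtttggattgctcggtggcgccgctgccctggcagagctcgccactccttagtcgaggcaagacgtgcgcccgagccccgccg
The ISG15 window is chr1:1013247-1013546 (plus strand) and holds 2 overlapping ISRE cores. The PARP14 window is chr3:122680589-122680888 (plus strand) and holds a GAS form and an ISRE core side by side. The GBP4 window is chr1:89198893-89199192 (minus strand), where the core reads on the other strand, and the IRF1 window is chr5:132490724-132491023 (minus strand), with a GAS form and no ISRE core.

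Shorter stretches around the ISRE core of 5 further members are set one below the other, core in capitals and 6 bases on each side, written along the strand on which the core reads. They show the same core in genes that fell in 1 or more lines and in BST2, which rose in SUDHL4.
EPSTI1: ttctgaGAAACCGAAActcagc
MX1: agaaatGAAACCGAAActgaat
EIF2AK2: caagggGAAAACGAAActgaga
GBP1: taatatGAAACTGAAAgtactt
BST2: ttctggGAAACTGAAActgaaa
These lie at chr13:42992276-42992297 (EPSTI1, minus strand), chr21:41420563-41420584 (MX1, plus strand), chr2:37156971-37156992 (EIF2AK2, minus strand), chr1:89065320-89065341 (GBP1, a gene on the minus strand, core on the plus strand) and chr19:17405745-17405766 (BST2, minus strand), all on GRCh38.p14. In Farage, 15 of the 20 tested members with an ISRE core in a window fell and 9 of the 12 without did, with median changes of -1.04 and -0.63. Over all tested genes with a window, 49.2% of the 376 with the core and 47.4% of the 8516 without fell there. In SUDHL4 the member counts were 7 of 20 and 5 of 12 (42.3% and 47.0% of all such genes), and in SUDHL6 3 of 20 and 3 of 12 (33.2% and 41.9%).

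Values are CPM, read counts scaled to the depth of the library and not divided by gene length, so levels are compared between libraries and not between genes. Reads on listed genes numbered 6.29 to 25.5 M in a library. Replicate 3 of both SUDHL6 groups was shallow (6.29 M with inhibitor, 7.36 M with DMSO), against 16.9 to 25.5 M in the other 16 libraries, and 3 reads correspond to 0.362 CPM in the shallowest library, a limit that covers counting error only. Markers of B cells summed to 2014 to 6613 CPM in every library. T or NK cell markers summed to at most 2.41 CPM, myeloid markers to 3.5, plasmacytoid dendritic cell markers to 0.417 and stromal or epithelial markers to 7.45. The B cell marker sum itself was lower with the inhibitor: 2080 to 3140 CPM against 5230 to 5510 CPM with DMSO in SUDHL6, 2010 to 2130 against 3510 to 3670 in Farage, and 4200 to 4320 against 6160 to 6610 in SUDHL4. Its part in the results below was not tested, and fewer cells of a type and less RNA per cell cannot be told apart in bulk libraries.

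The members differed widely between the lines without the inhibitor. With DMSO alone, 20 of the 44 had a mean of at least 1 CPM in SUDHL6, 38 in Farage and 23 in SUDHL4. Of these, 16 reached that level in all 3 lines, 14 in Farage alone, 1 in SUDHL4 alone, 9 in 2 lines, and 4 in none. Farage had the highest DMSO mean for 30 members, SUDHL6 for 8 and SUDHL4 for 6. Summed over the 44, the DMSO libraries held 1570 to 1600 CPM in Farage, 742 to 868 in SUDHL6 and 645 to 657 in SUDHL4.

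**Figure D1:**
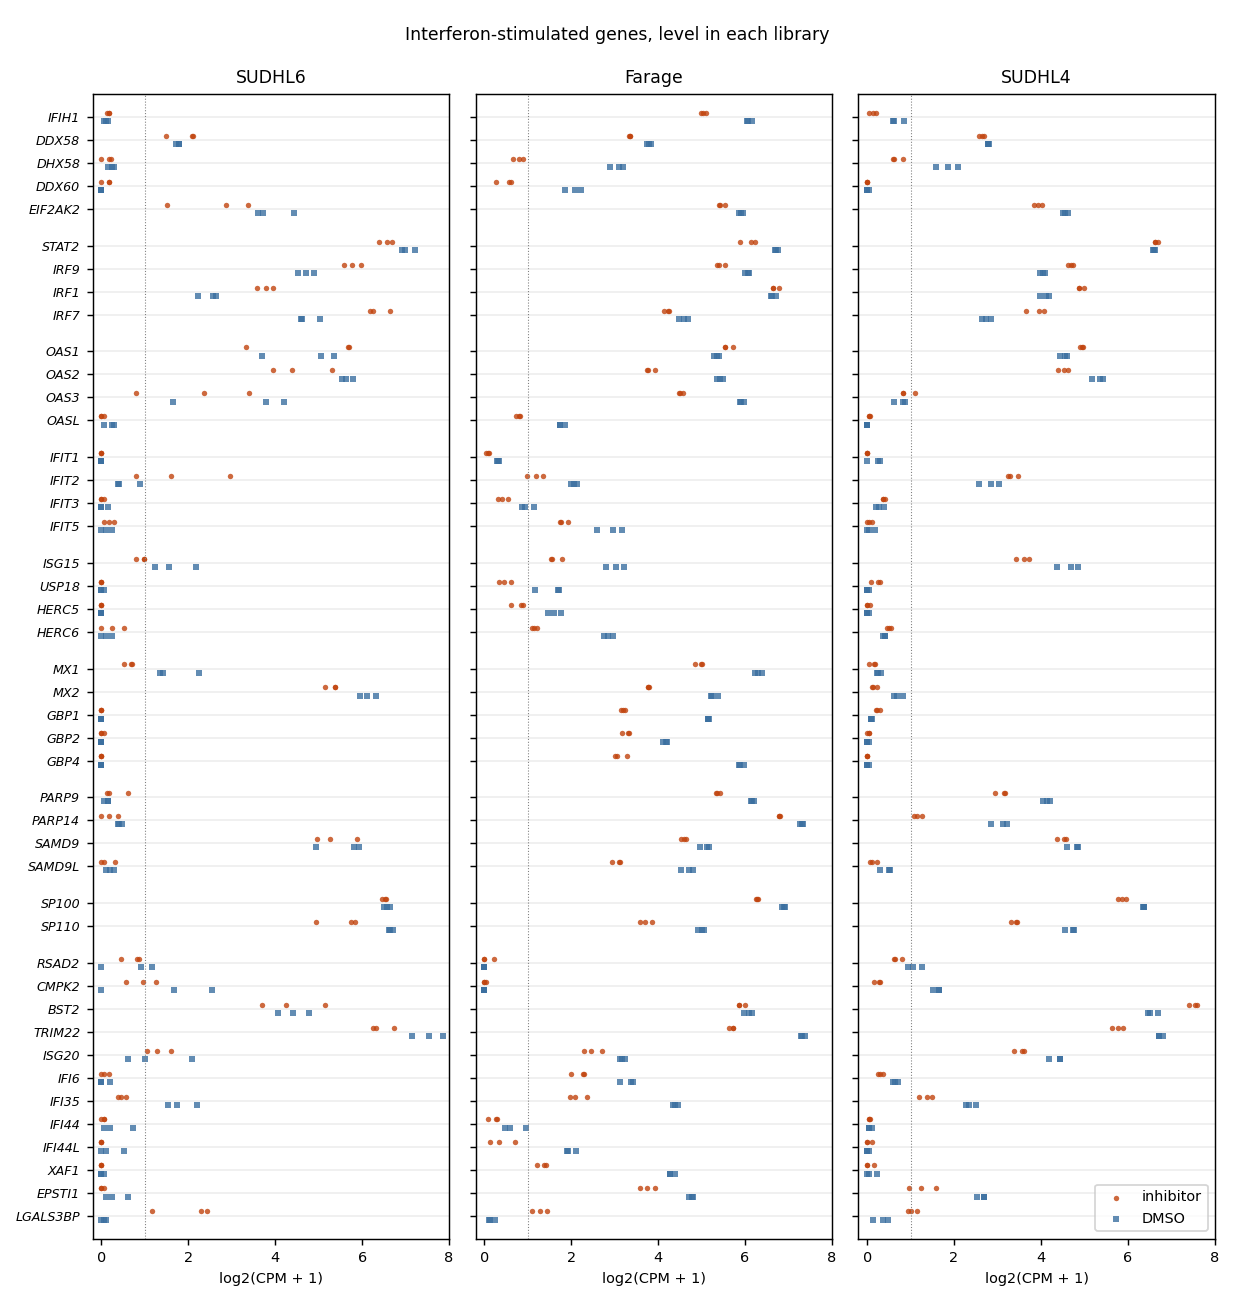
Level of all 44 interferon-stimulated genes on the log2(CPM + 1) scale, with a panel per line, a row per gene in role groups, orange circles for the 3 inhibitor libraries and blue squares for the 3 DMSO libraries; the dotted line marks 1 CPM. In Farage 38 members lie right of that line with DMSO, against 20 in SUDHL6 and 23 in SUDHL4, where most of the other members sit near 0 in both treatments.

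Tests used limma on log2(CPM + 1) over 12769 genes, which included 41 members. IFIT1, IFIT3 and IFI44 had too few reads. A gene needed at least 1 CPM in at least 3 libraries. DDX60, OASL, USP18, HERC5 and IFI44L reached 1 CPM only in the 3 Farage DMSO libraries, and LGALS3BP only in inhibitor libraries. DHX58 reached it only in DMSO libraries of Farage and SUDHL4, and RSAD2 only in DMSO libraries of SUDHL6 and SUDHL4. All of these members entered the tests through the groups where they are high, so the filter favoured their calls. Calls of higher or lower rest on a Benjamini-Hochberg adjusted p under 0.05, and differences are on the log2(CPM + 1) scale, which understates changes of low genes. Between DMSO groups, 30 of the 41 members were higher and 5 lower in Farage than in SUDHL6, where 33.8% of all tested genes were higher and 37.5% lower. Against SUDHL4, 29 members were higher and 4 lower in Farage (36.0% and 31.1% of all tested genes). SUDHL6 and SUDHL4 were split, with 11 members higher and 14 lower in SUDHL6 (38.5% and 30.1%).

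The widest baseline gaps were in a few families. GBP4, an interferon-inducible guanylate-binding GTPase, had 58.0, 61.5 and 57.1 CPM in Farage DMSO libraries and 0 reads in all 3 SUDHL6 DMSO libraries, at least 1212-fold higher in Farage when 3 reads over the SUDHL6 group are taken as the limit. GBP1 and GBP2 of the same family also had 0 reads there, at least 714.8-fold and 349.1-fold higher in Farage. PARP14, a mono-ADP-ribosyltransferase, had 158, 152 and 161 CPM in Farage, against 0.308, 0.378 and 0.321 in SUDHL6 (difference 6.89 ± 0.11 SE, adjusted p = 4.94e-18).

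PARP9, a partner of the ubiquitin ligase DTX3L, had 69.8, 73.2 and 70.1 CPM in Farage DMSO libraries, against 0.116, 0.0378 and 0.107 in SUDHL6 (6.05 ± 0.12, adjusted p = 5.21e-17). IFIH1 (MDA5), a sensor of long double-stranded RNA, had 70.2, 65.4 and 66.6 CPM in Farage, against 0.0385, 0.0755 and 0.107 in SUDHL6 and 0.511, 0.792 and 0.536 in SUDHL4 (differences 5.99 and 5.41). MX1, a dynamin-like antiviral GTPase, had 82.9, 77.5 and 73.9 CPM in Farage, against 0.255, 0.190 and 0.168 in SUDHL4 (6.04 ± 0.17, adjusted p = 5.84e-15). For each of these genes the 2 sets of 3 libraries did not overlap. 

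Not every member was highest in Farage. MX2, a paralogue of MX1 known to restrict HIV, had 60.4, 68.6 and 78.5 CPM in SUDHL6 DMSO libraries, against 0.620, 0.538 and 0.770 in SUDHL4 (5.41 ± 0.11, adjusted p = 2.05e-16), and was lower in Farage than in SUDHL6 (difference -0.84, adjusted p = 2.55e-06). ISG20, a 3′ exonuclease, had 3.27, 1.02 and 0.535 CPM in SUDHL6, against 20.8, 20.6 and 17.2 in SUDHL4 (-3.11 ± 0.26, adjusted p = 2.01e-08). RSAD2 (viperin) and its neighbour CMPK2 had 0 reads in all 3 Farage DMSO libraries. They reached 0.918 to 1.39 CPM and 1.88 to 2.15 CPM in SUDHL4. The line with the highest sum thus had no reads of 2 members.

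The inhibitor lowered most members in Farage and moved fewer of them in the other lines. In Farage, 33 of the 41 tested members fell and 1 rose, where 46.5% of all tested genes fell and 25.4% rose. The falls include DHX58, DDX60, OASL, USP18, HERC5 and IFI44L, and the rise is LGALS3BP, calls that the filter favoured. It also favoured the fall of DHX58 in SUDHL4 and the rises of LGALS3BP in SUDHL4 and SUDHL6. In SUDHL4, 16 members fell and 5 rose (46.2% and 24.3% of all tested genes), and in SUDHL6 10 fell and 5 rose (41.3% and 26.8%). At this scale the members' count of falls lay above the share over all genes in Farage and below it in SUDHL4 and SUDHL6. Among genes of at least 1 CPM it lay close to that share in SUDHL4 and SUDHL6. After rescaling it did so in SUDHL4, as the next values show. The median change of the members was -1.01 in Farage, -0.14 in SUDHL4 and -0.02 in SUDHL6, against -0.22, -0.21 and -0.13 over all tested genes.

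Members with almost no reads in a line cannot fall there. Among those with a mean of at least 1 CPM over a line's 6 libraries, 33 of 38 fell and 0 rose in Farage (49.3% and 26.6% of genes at that level), 12 of 22 fell and 4 rose in SUDHL4 (50.5% and 26.0%), and 9 of 22 fell and 5 rose in SUDHL6 (44.8% and 28.4%). Their median changes were -1.06 in Farage, -0.72 in SUDHL4 and -0.33 in SUDHL6, against -0.28, -0.31 and -0.20 over genes at that level. With the libraries rescaled by median of ratios, which brings the median of all genes to between -0.04 and 0 in each line, 28 members fell and 2 rose in Farage (37.2% and 33.6% of all tested genes), 16 and 7 in SUDHL4 (36.1% and 34.3%), and 9 and 5 in SUDHL6 (34.8% and 33.1%). That scaling raised the share of higher genes among all calls to 47.4% in Farage, against 35.3% at the deposited scale, to 48.7% against 34.5% in SUDHL4 and to 48.8% against 39.4% in SUDHL6.

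**Figure D2:**
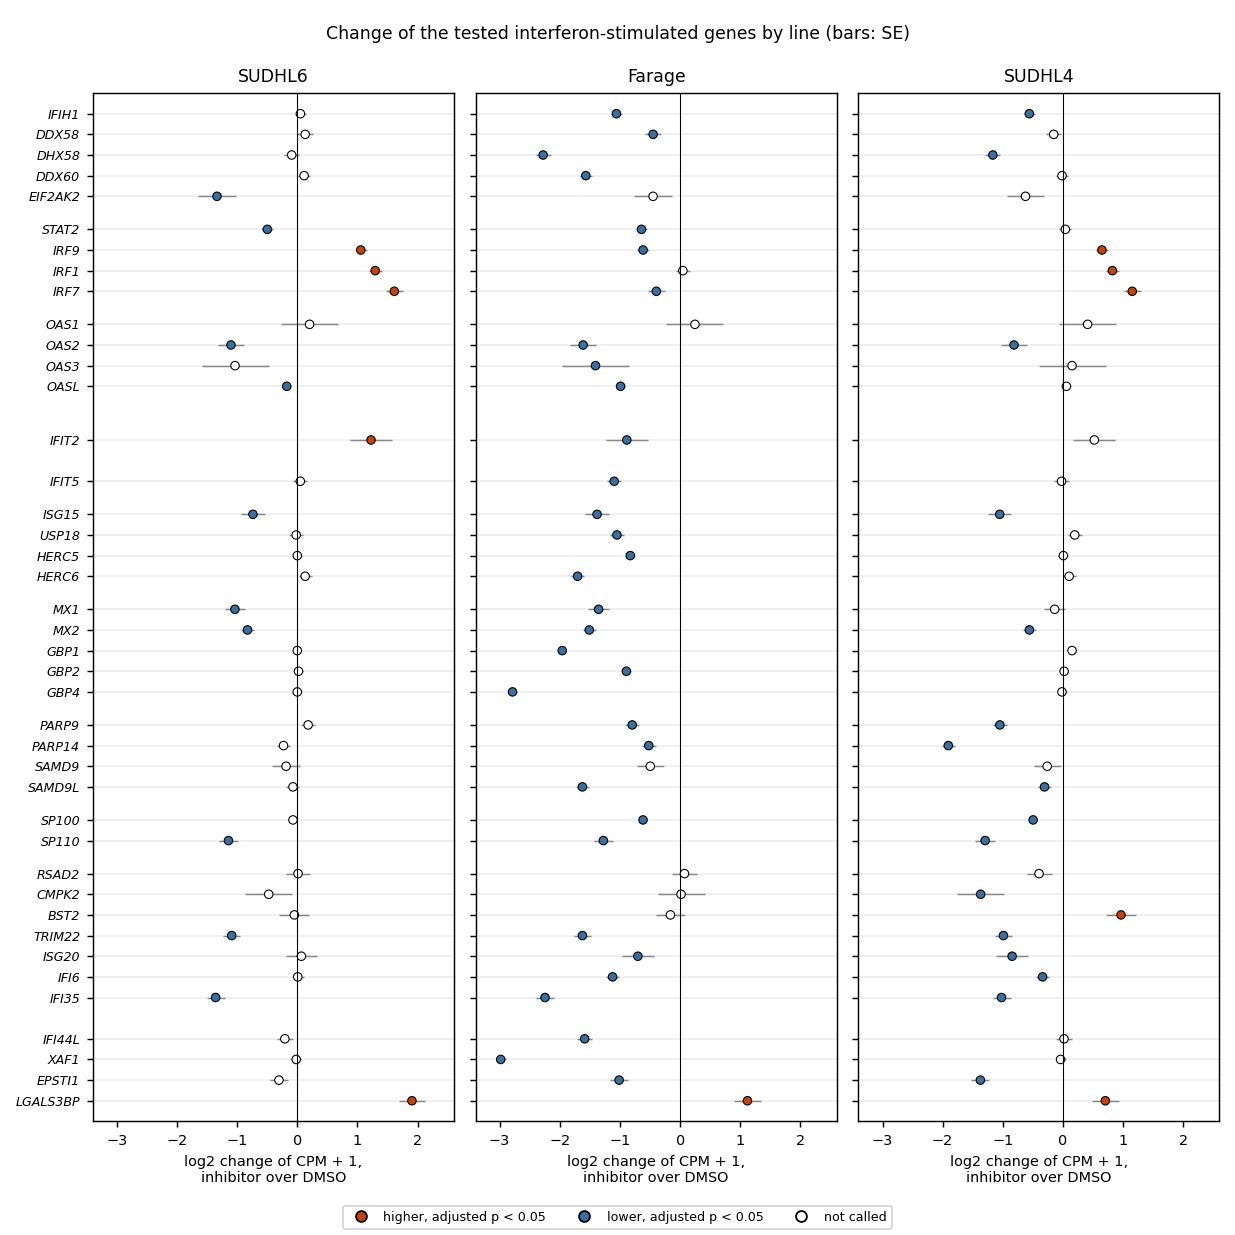
Change of the 41 tested members, inhibitor over DMSO, on the log2(CPM + 1) scale in each line; points are estimates, bars are their SE, orange is higher, blue is lower and white is not called. Farage has 33 blue points and 1 orange, SUDHL4 16 and 5, and SUDHL6 10 and 5; the wide bars of OAS1, OAS3 and EIF2AK2 carry the spread of the SUDHL6 libraries into all 3 panels.

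Summed over all 44, the inhibitor libraries held 864 to 899 CPM in Farage, against 1570 to 1600 with DMSO. The sum was 606 to 740 CPM in SUDHL6, against 742 to 868 with DMSO, and 608 to 613 CPM in SUDHL4, against 645 to 657 with DMSO. All 3 inhibitor libraries lay below all 3 DMSO libraries in 35 members in Farage, 21 in SUDHL4 and 10 in SUDHL6, and above them in 2, 11 and 4 (over all tested genes 53.2%, 51.6% and 36.5% lay below, and 30.6%, 28.9% and 24.4% above). At this scale no inhibitor library's sum reached the lowest DMSO sum of its line. After median-of-ratios rescaling the sums were 706 to 718 with the inhibitor against 608 to 621 with DMSO in SUDHL4, where the order turned round. They were 593 to 696 against 669 to 749 in SUDHL6, where the groups overlapped, and 972 to 984 against 1480 to 1510 in Farage.

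Across lines, 6 members fell in all 3 (OAS2, ISG15, MX2, SP110, TRIM22 and IFI35), 12 fell in 2, and 14 fell in 1 and rose in none. Over all tested genes these shares were 28.3%, 15.9% and 12%. With DMSO, 16 members had a mean of at least 1 CPM in all 3 lines and 14 in Farage alone. Many members could thus hardly fall in all 3, and the counts are not read against these shares. IRF7 and IRF9 fell in Farage and rose in SUDHL6 and SUDHL4, IFIT2 fell in Farage and rose in SUDHL6, IRF1 rose in SUDHL6 and SUDHL4, BST2 rose in SUDHL4 and LGALS3BP rose in all 3. OAS1, SAMD9 and RSAD2 were called in none. In the mean of the 3 lines 32 members fell and 4 rose (53.8% and 30.1% of all tested genes). With edgeR on recovered reads, which does not damp low levels, 14 fell and 7 rose (40.1% and 39.1% of all tested genes). There the members' share of falls was close to that of all genes.

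The 4 transcription factors moved differently from line to line. In SUDHL6 3 rose and 1 fell (26.8% and 41.3% of all tested genes). In Farage 0 rose and 3 fell (25.4% and 46.5%), and in SUDHL4 3 rose and 0 fell (24.3% and 46.2%). After median-of-ratios scaling the counts were 3 and 1 in SUDHL6 (33.1% and 34.8%) and 1 and 2 in Farage (33.6% and 37.2%). They were 4 and 0 in SUDHL4 (34.3% and 36.1%). IRF7, which induces interferon alpha genes and is itself interferon-inducible, had 99.4, 75.1 and 71.6 CPM with the inhibitor in SUDHL6, against 23.4, 31.9 and 23.2 with DMSO (1.61 ± 0.14, adjusted p = 6.71e-08). In SUDHL4 it had 14.6, 15.8 and 11.6 CPM with the inhibitor, against 5.29, 6.17 and 5.66 with DMSO (1.15 ± 0.14, adjusted p = 1.98e-06). In Farage it had 17.9, 16.5 and 17.6 CPM with the inhibitor, against 24.9, 23.2 and 21.3 with DMSO (-0.40 ± 0.14, adjusted p = 0.0203). The groups did not overlap in any line. The Farage fall was not called after median-of-ratios scaling (-0.16, adjusted p = 0.36) or without inhibitor replicate 2 (adjusted p = 0.0647) or DMSO replicate 1 (0.0753).

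IRF9, the DNA-binding subunit of ISGF3, had 46.9, 61.6 and 53.3 CPM with the inhibitor in SUDHL6, against 25.3, 28.8 and 22.2 with DMSO (1.05 ± 0.10, adjusted p = 1.86e-07). In SUDHL4 it had 24.9, 23.8 and 25.7 CPM, against 14.7, 15.6 and 16.1 with DMSO (0.65 ± 0.10, adjusted p = 2.95e-05). The Farage libraries held 41.0, 39.8 and 45.7 CPM, against 62.8, 65.7 and 66.7 with DMSO (-0.62 ± 0.10, adjusted p = 5.13e-05). IRF9 thus rose in SUDHL6 and SUDHL4 and fell in Farage, where its DMSO level was highest, with separate groups in each line. A link between level and direction was not tested.

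IRF1, the first interferon regulatory factor described and a target of interferon gamma, had 11, 12.8 and 14.5 CPM with the inhibitor in SUDHL6, against 3.70, 5.21 and 4.93 with DMSO (1.30 ± 0.11, adjusted p = 5.08e-08). In SUDHL4 it had 28.3, 28.2 and 30.7 CPM, against 14.8, 16.2 and 17.1 with DMSO (0.82 ± 0.11, adjusted p = 5.55e-06). In Farage it had 98.5, 99.0 and 110 CPM, against 95.2, 105 and 97.5 with DMSO, where the groups overlapped (0.05 ± 0.11, adjusted p = 0.737), unlike in the other two lines. Only after median-of-ratios scaling or with count tests was IRF1 called higher in Farage (0.29, adjusted p = 0.0223 with that scaling). Its window, shown above, holds a GAS form and no ISRE core.

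STAT2, the ISGF3 subunit with a strong transactivation domain, had 82.3, 103 and 93.7 CPM with the inhibitor in SUDHL6, against 126, 148 and 120 with DMSO (-0.50 ± 0.10, adjusted p = 0.000262). The Farage libraries held 74.1, 69.3 and 57.7 CPM, against 104, 102 and 108 with DMSO (-0.64 ± 0.10, adjusted p = 1.87e-05). In SUDHL4 it had 97.4, 97 and 103 CPM, against 95.6, 95.1 and 98.5 with DMSO, where the groups overlapped (0.04 ± 0.10, adjusted p = 0.752). The groups were separate in SUDHL6 and Farage. With median-of-ratios scaling or count tests STAT2 was called higher in SUDHL4 (0.34, adjusted p = 0.00358 with that scaling).

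**Figure D3:**
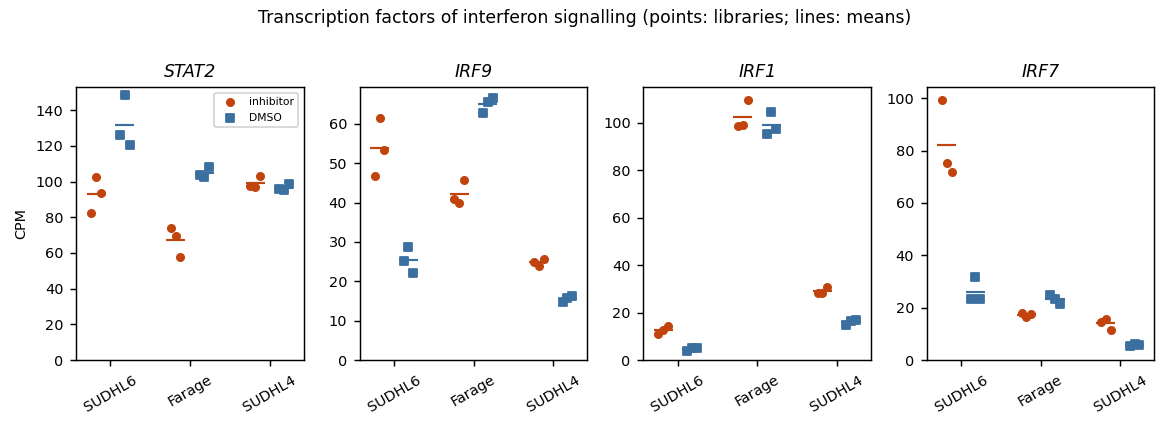
CPM of STAT2, IRF9, IRF1 and IRF7 in each library (points) with group means (lines), inhibitor left of DMSO in each line. IRF9 and IRF7 are higher with the inhibitor in SUDHL6 and SUDHL4 and lower in Farage, and STAT2 is lower in SUDHL6 and Farage and overlaps in SUDHL4.

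Of the 5 RNA sensors 4 fell in Farage, where 46.5% of all tested genes fell. DHX58 and DDX60 passed the filter only through DMSO libraries, which favoured their calls. DHX58 (LGP2), a helicase without signalling domains that modulates the other sensors, had 0.847, 0.753 and 0.570 CPM with the inhibitor in Farage, against 7.51, 8.19 and 6.40 with DMSO (-2.28 ± 0.12, adjusted p = 2.53e-10). In SUDHL4 it had 0.775, 0.534 and 0.509 CPM, against 3.25, 2.63 and 2.01 with DMSO (-1.17 ± 0.12, adjusted p = 3.13e-07), and in SUDHL6 it stayed at or below 0.214 CPM in both groups. IFIH1 had 30.6, 31.5 and 33.4 CPM with the inhibitor in Farage, against 70.2, 65.4 and 66.6 with DMSO (-1.06 ± 0.09). DDX60, a helicase, fell in Farage (0.201 to 0.521 CPM, against 2.62 to 3.64 with DMSO), and DDX58 fell too (-0.45), a call lost after median-of-ratios scaling (-0.22, adjusted p = 0.138).

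EIF2AK2 (PKR), the kinase that halts translation on double-stranded RNA, had 1.85, 6.31 and 9.30 CPM with the inhibitor in SUDHL6, against 11.2, 12.2 and 20.4 with DMSO (-1.33 ± 0.31, adjusted p = 0.00125). All 3 inhibitor libraries lay below all DMSO libraries, with a wide spread in each, and with the libraries of SUDHL6 alone the adjusted p was 0.0826. In Farage it had 41.3, 42.3 and 45.5 CPM, against 58.8, 57.4 and 61.2 with DMSO, and in SUDHL4 14.3, 13.3 and 15.3 CPM, against 23.5, 22.5 and 21.8. These groups did not overlap either, and neither was called in the shared fit (adjusted p = 0.211 and 0.087). Fitted on each line's own libraries both were called lower, with adjusted p = 4.29e-05 in Farage and 0.000285 in SUDHL4 in the fits that leave out SUDHL6 and its wider spread.

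The 2′-5′-oligoadenylate synthetases make the messenger that activates RNase L. OAS2 had 12.3, 12.7 and 14.2 CPM with the inhibitor in Farage, against 44.3, 41.9 and 39.9 with DMSO (-1.61 ± 0.22, adjusted p = 5.57e-06). In SUDHL6 it had 20.0, 38.5 and 14.5 CPM, against 45.6, 48.5 and 54.2 with DMSO (-1.10 ± 0.22, adjusted p = 0.000292), and in SUDHL4 20.1, 22 and 23.5 CPM, against 40.1, 42.3 and 35.4 (-0.81 ± 0.22, adjusted p = 0.00323). The groups did not overlap in any line. OAS2 thus fell in all 3, while its neighbour OAS1 did not fall in any.

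OAS1 had 45.2, 45.5 and 51.4 CPM with the inhibitor in Farage, against 38.0, 41.4 and 39.9 with DMSO, and 29.6, 30.3 and 28.7 CPM in SUDHL4, against 20.6, 22.4 and 23.1 with DMSO. Both sets lay wholly above their DMSO libraries without a call in the shared fit (adjusted p = 0.663 and 0.464), and were called higher when fitted on each line alone (0.25, adjusted p = 0.0057, and 0.41, adjusted p = 0.00109). In SUDHL6 replicate 3 was low in both groups, at 9.06 CPM with the inhibitor and 12.0 CPM with DMSO, while the other libraries held 50.1 and 51.3 CPM with the inhibitor, against 32.2 and 39.7 CPM with DMSO. Without both replicate 3 libraries OAS1 was called higher in SUDHL6 (0.49, adjusted p = 0.000497). Without the inhibitor replicate 3 alone the difference was 0.99 (adjusted p = 0.00775).

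OAS3, the third synthetase of the cluster, showed the same replicate 3. In SUDHL6 it had 4.17, 9.5 and 0.725 CPM with the inhibitor, against 12.9, 17.4 and 2.14 with DMSO (-1.03 ± 0.56, adjusted p = 0.111). It was lower in 3 of 3 same-numbered pairs and was called lower with the replicate number as a block (adjusted p = 1.72e-05) or without both replicate 3 libraries (-1.12, adjusted p = 0.000533). In Farage OAS3 had 22.7, 21.7 and 21.2 CPM, against 61.6, 58.2 and 59.2 with DMSO (-1.41 ± 0.56, adjusted p = 0.0323), wholly separate groups whose call in the shared fit was lost after median-of-ratios scaling (-1.17, adjusted p = 0.0639) or when any of the 6 Farage libraries was left out (adjusted p = 0.0613 to 0.0702). On the Farage libraries alone OAS3 was lower at adjusted p = 5.08e-08. OASL fell in Farage (-0.99), and its change of -0.18 in SUDHL6 lay at or below 0.214 CPM, a call lost with the block (adjusted p = 0.0549).

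The IFIT proteins bind viral RNA lacking host cap marks. IFIT1 and IFIT3 were at or below 1.2 CPM in every library and were not tested. IFIT5 had 2.8, 2.33 and 2.41 CPM with the inhibitor in Farage, against 5.07, 6.77 and 7.96 with DMSO (-1.10 ± 0.12). IFIT2 differed between lines. In SUDHL6 it had 6.75, 2.04 and 0.725 CPM with the inhibitor, against 0.848, 0.302 and 0.321 with DMSO (1.23 ± 0.35, adjusted p = 0.00495). Its groups overlapped there, with an adjusted p of 0.116 on the libraries of SUDHL6 alone. It was higher in 3 of 3 same-numbered pairs, with adjusted p = 0.000519 when the replicate number was a block. The Farage libraries held 1.53, 0.979 and 1.27 CPM, against 3.15, 3.37 and 2.97 with DMSO (-0.89 ± 0.35, adjusted p = 0.0306), and these groups were separate. That call was lost in the shared fit without any of 5 of the 6 Farage libraries (adjusted p = 0.0533 to 0.0908). It was also lost after median-of-ratios scaling (-0.73, adjusted p = 0.0781) and with no filter on level (adjusted p = 0.0526). On the Farage libraries alone IFIT2 was called lower (adjusted p = 4.74e-05).

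ISG15 is a ubiquitin-like modifier, HERC5 its ligase and USP18 the protease that removes it. ISG15 had 2.44, 1.96 and 1.91 CPM with the inhibitor in Farage, against 7.19, 8.23 and 5.93 with DMSO (-1.38 ± 0.20, adjusted p = 9.04e-06). In SUDHL4 it had 11.2, 12.2 and 9.72 CPM, against 28.0, 24.7 and 19.6 with DMSO (-1.05 ± 0.20, adjusted p = 0.000142). In SUDHL6 it had 0.731, 0.977 and 0.966 CPM, against 1.35, 1.93 and 3.53 with DMSO (-0.74 ± 0.20, adjusted p = 0.00319, or 0.0525 on that line's libraries alone). The groups were separate in all 3 lines. HERC5, HERC6 and USP18 fell in Farage (changes of -1.70 to -0.83) and were near 0 in the other lines.

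Of the GTPases, all 5 fell in Farage, where 46.5% of all tested genes fell. GBP4 had 7.26, 8.81 and 7.04 CPM with the inhibitor, against 58.0, 61.5 and 57.1 with DMSO (-2.79 ± 0.08, adjusted p = 6.21e-13). GBP1 had 8.21, 7.91 and 8.42 CPM, against 35.3, 34.2 and 34.6 with DMSO (-1.96 ± 0.07, adjusted p = 2.90e-12). MX1 had 30.7, 27.6 and 31.4 CPM, against 82.9, 77.5 and 73.9 with DMSO (-1.36 ± 0.17). These are separate groups with small spread, in a family read at 0 to 0.231 CPM for GBP1, GBP2 and GBP4 in all SUDHL6 and SUDHL4 libraries.

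MX2 fell in all 3 lines. It had 34.6, 40.3 and 40.3 CPM with the inhibitor in SUDHL6, against 60.4, 68.6 and 78.5 with DMSO (-0.83 ± 0.11, adjusted p = 3.89e-06). In Farage it had 12.6, 12.5 and 12.9 CPM, against 36.9, 40.9 and 36.4 with DMSO (-1.51 ± 0.11). Its fall in SUDHL4 lies below 1 CPM (0.0738 to 0.178 against 0.538 to 0.770 CPM with DMSO).

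PARP9 and PARP14 fell in Farage and in SUDHL4, to differing degrees. PARP14 had 1.11, 1.39 and 1.2 CPM with the inhibitor in SUDHL4, against 8.28, 7.70 and 6.23 with DMSO (-1.91 ± 0.11, adjusted p = 5.95e-10). The Farage libraries held 109, 108 and 110 CPM, against 158, 152 and 161 with DMSO (-0.52 ± 0.11, adjusted p = 0.000577). PARP9 had 7.97, 6.66 and 7.82 CPM with the inhibitor in SUDHL4, against 16.6, 17.5 and 15.4 with DMSO (-1.05 ± 0.12), and it fell in Farage too (-0.80). Both were at most 0.533 CPM in SUDHL6. SAMD9L, an antiviral growth suppressor, fell in Farage (-1.62) and in SUDHL4 (-0.31, at 0.438 CPM or less), the second a call lost without any of 4 of its 6 SUDHL4 libraries (adjusted p = 0.0534 to 0.0716). SAMD9 was not called in any line in the shared fit. Its groups did not overlap in Farage (22 to 24.1 CPM against 30.2 to 35.2 CPM with DMSO), and on that line's libraries alone it was lower (-0.50, adjusted p = 0.00019), as it was in SUDHL4 (-0.26, adjusted p = 0.0458).

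SP100 and SP110 are nuclear body proteins. SP110 had 29.8, 55.9 and 52.5 CPM with the inhibitor in SUDHL6, against 104, 98.1 and 96.7 with DMSO (-1.14 ± 0.16, adjusted p = 1.16e-05). In Farage it had 12.1, 11 and 13.6 CPM, against 29.4, 31.2 and 32.1 (-1.28 ± 0.16), and in SUDHL4 8.96, 9.72 and 10.0 CPM, against 25.9, 26.2 and 22.6 (-1.29 ± 0.16). The groups were separate in all 3 lines, and the SP110 responses differed by 0.13 ± 0.23 (SUDHL6 minus Farage), -0.02 ± 0.23 (SUDHL4 minus Farage) and 0.15 ± 0.23 (SUDHL6 minus SUDHL4), none of them called. Without SUDHL6 inhibitor replicate 1, the lowest of its group, the SUDHL6 response was called higher than that of Farage (0.41, adjusted p = 0.0152) and of SUDHL4 (0.43, adjusted p = 0.0121). SP100 fell in Farage (-0.62) and SUDHL4 (-0.50), and had 86.2, 92.0 and 91.1 CPM with the inhibitor in SUDHL6, against 99.5, 90.1 and 93.7 with DMSO, overlapping groups.

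Among the other effectors, TRIM22, a ubiquitin ligase that restricts viral transcription, had 75.1, 105 and 78.5 CPM with the inhibitor in SUDHL6, against 232, 186 and 142 with DMSO (-1.09 ± 0.14, adjusted p = 4.27e-06). The Farage libraries held 52.0, 48.8 and 51.4 CPM, against 154, 164 and 157 with DMSO (-1.62 ± 0.14), and in SUDHL4 53.3, 48.7 and 58.0 CPM, against 111, 105 and 104 (-0.99 ± 0.14). IFI35 had 2.93, 3.24 and 4.16 CPM with the inhibitor in Farage, against 19.8, 20.9 and 19.2 with DMSO (-2.25 ± 0.15), and also fell in SUDHL6 (-1.36) and SUDHL4 (-1.02). All of these groups were separate.

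XAF1, a pro-apoptotic antagonist of XIAP, showed the largest fall of any member. It had 1.60, 1.70 and 1.31 CPM with the inhibitor in Farage, against 18.5, 18.4 and 20.1 with DMSO (-2.98 ± 0.08, adjusted p = 3.24e-13), and was at or below 0.168 CPM in every SUDHL6 and SUDHL4 library. EPSTI1 had 0.959, 1.99 and 1.34 CPM with the inhibitor in SUDHL4, against 5.40, 5.48 and 4.76 with DMSO (-1.37 ± 0.15, adjusted p = 4.48e-07), and 11, 12.3 and 14.2 CPM in Farage, against 26.4, 27.1 and 25.0 with DMSO (-1.01 ± 0.15). CMPK2, which makes nucleotides for mitochondria, fell in SUDHL4 (0.111 to 0.231 CPM, against 1.88 to 2.15 with DMSO). In SUDHL6, where DMSO replicate 3 had 0 reads of it, CMPK2 was called lower only when DMSO replicate 3 was left out, alone or with inhibitor replicate 3 (-0.996, adjusted p = 0.000239, without both).

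2 effectors rose. BST2 (tetherin), which holds budding virus at the cell surface, had 186, 192 and 170 CPM with the inhibitor in SUDHL4, against 90.4, 87.2 and 102 with DMSO (0.96 ± 0.25, adjusted p = 0.00225). In SUDHL6 its groups overlapped, at 11.9 to 34.4 CPM against 15.6 to 26.2 CPM with DMSO, and in Farage at 57.1 to 63.2 against 62.0 to 70.0 CPM. LGALS3BP, a secreted galectin-binding glycoprotein, rose in all lines, with 4.39, 1.24 and 3.87 CPM with the inhibitor in SUDHL6, against 0.0770, 0.0378 and 0 with DMSO. ISG20 fell in SUDHL4 (-0.84) and in Farage (-0.70). Both ISG20 calls were lost with edgeR (adjusted p = 0.0564 and 0.0779), and the Farage one without DMSO replicate 1 or 2 or inhibitor replicate 1 or 2 (0.0511 to 0.0843).

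The lines' responses were then compared with each other. The change was higher in SUDHL6 than in Farage for 26 of the 41 members and lower for 0 (21.7% and 15.1% of all tested genes), and higher in SUDHL4 than in Farage for 25 and lower for 1 (17.7% and 19.7%). By edgeR 12 and 14 members were higher, counts that are not set against a share over all genes and not read as an excess. A member near 0 in SUDHL6 or SUDHL4 can hardly change there on the log2(CPM + 1) scale. Over members with a mean of at least 1 CPM in both lines, 9 of 20 were higher in SUDHL6 than in Farage and 0 lower (20.4% and 14% of genes at that level), and 9 of 21 higher in SUDHL4 than in Farage and 1 lower (15.9% and 19.0%). Between SUDHL6 and SUDHL4, 9 of 41 were higher and 3 lower in SUDHL6 (22.5% and 12.5%), or 3 and 2 of the 18 at that level in both (22.7% and 11.6%).

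IRF7, IRF9 and IRF1 were among the members whose response differed from Farage in both other lines. The IRF7 response was 2.01 ± 0.20 higher in SUDHL6 than in Farage (adjusted p = 1.51e-06) and 1.55 ± 0.20 higher in SUDHL4 than in Farage (1.82e-05). IRF9 differed by 1.67 ± 0.15 and 1.26 ± 0.15, and IRF1 by 1.25 ± 0.16 and 0.78 ± 0.16, in the same pairs. IFIT2 differed by 2.11 (SUDHL6 minus Farage, adjusted p = 0.00306) and by 1.41 (SUDHL4 minus Farage, adjusted p = 0.033), the second a call lost without any of 9 libraries (0.052 to 0.0774). PARP14 was the only member called in the shared fit as falling further in SUDHL4 than in Farage (-1.38 ± 0.16, adjusted p = 4.91e-06). EdgeR, DESeq2 and the fit of only the compared groups called more such members, as given at the end. XAF1, GBP4 and GBP1 had the smallest p in both pairs (differences 2.96, 2.79 and 1.96 against SUDHL6, and 2.94, 2.77 and 2.11 against SUDHL4), where the other line had almost no reads of them.

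Between SUDHL6 and SUDHL4 the smallest p belonged to PARP14 (1.68 ± 0.16, adjusted p = 1.38e-06), PARP9 (1.23 ± 0.17, adjusted p = 4.99e-05) and DHX58 (1.07 ± 0.17, adjusted p = 0.000207), which had at most 0.533 CPM in SUDHL6. STAT2 (-0.54 ± 0.14, adjusted p = 0.00667) and BST2 (-1.01 ± 0.35, adjusted p = 0.0333) were lower in the SUDHL6 response. The BST2 call was lost without any of 8 single libraries (adjusted p = 0.0546 to 0.0799, differences down to -0.68), 4 of SUDHL6 and 4 of SUDHL4. On the ratio scale of edgeR some differences turned round: IFI35 in SUDHL6 against Farage gave -0.25 in place of 0.89, and MX2 in SUDHL4 against Farage -0.75 in place of 0.95. For these the direction of the difference rests on the scale.

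The rest of the pathway was examined by lists. Of 21 interferon genes none was high enough to test: in Farage they held 33 reads in all with the inhibitor and 14 with DMSO, in SUDHL4 22 and 3, and in SUDHL6 2 and 5, and no library exceeded 0.188 CPM for any of them. Of the 9 receptor and JAK kinase genes, 4 rose and 3 fell in SUDHL6, 3 and 3 in Farage and 3 and 3 in SUDHL4, where the shares over all tested genes were those given for the members. After median-of-ratios scaling the counts were 4 and 1 (33.1% and 34.8% of all tested genes), 5 and 3 (33.6% and 37.2%), and 6 and 2 (34.3% and 36.1%). IL10RB and JAK1 were added as higher in Farage and IFNGR2, IL10RB and IFNLR1 in SUDHL4. IFNAR1 rose in every line, with 95.5, 100 and 103 CPM with the inhibitor in Farage, against 63.0, 61.2 and 67.5 with DMSO (0.63 ± 0.11). Its partner IFNAR2 fell in every line, with 35.7, 37.0 and 35.9 CPM in Farage, against 90.4, 87.9 and 91.5 with DMSO (-1.29 ± 0.17). In SUDHL6 the IFNAR2 groups overlapped (21.5, 33.7 and 25.1 CPM against 49.4, 46.3 and 29.5 with DMSO). That call was lost on the SUDHL6 libraries alone (adjusted p = 0.0975) and kept with the replicate number as a block (0.00396). The shared fit thus called the 2 receptor chains in opposite directions in each line.

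The kinases split too. TYK2 fell in each line, with changes of -1.92 in Farage, -1.11 in SUDHL4 and -0.36 in SUDHL6, the last not called after median-of-ratios scaling (-0.19, adjusted p = 0.0854). JAK1 had 173, 191 and 183 CPM with the inhibitor in SUDHL6, against 87.8, 77.1 and 73.6 with DMSO (1.19 ± 0.08), rose in SUDHL4 (1.01) and was near the threshold in Farage (0.19, adjusted p = 0.0525). In Farage it was called higher after median-of-ratios scaling (0.43, adjusted p = 0.000131), by edgeR (adjusted p = 0.000242) and on that line's libraries alone (adjusted p = 0.00199). JAK1 is the kinase that binds IFNAR2, which fell in all 3 lines.

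Of 16 sensing and adaptor genes, 13 were tested. In SUDHL6 9 fell and 1 rose (41.3% and 26.8% of all tested genes). The counts were 10 and 2 in Farage (46.5% and 25.4%), and 9 and 1 in SUDHL4 (46.2% and 24.3%). After median-of-ratios scaling 8 fell and 3 rose in SUDHL6 (34.8% and 33.1%), and 9 and 2 in Farage (37.2% and 33.6%). In SUDHL4 8 fell and 4 rose with that scaling (36.1% and 34.3%). Calls changed for TICAM1, MAVS, TBK1 and TRAF3. IKBKE, a kinase that activates IRF3 and IRF7, had 3.55, 3.13 and 3.15 CPM with the inhibitor in Farage, against 44.2, 50.9 and 44.5 with DMSO (-3.47 ± 0.25, adjusted p = 4.52e-09), and fell in SUDHL6 (-2.45) and SUDHL4 (-3.08). IRF3, the factor that starts interferon beta transcription, fell in all lines (-0.68, -1.09 and -0.99 in SUDHL6, Farage and SUDHL4), as did IRF5 (-0.59, -1.77 and -1.67). The endosomal receptors TLR7 and TLR9 and their adaptor MYD88 also fell in all 3, MYD88 with changes of -0.99, -1.34 and -1.67 in the same order.

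Among 8 other regulators, 7 were tested. IRF4, a lymphoid factor of plasma cell differentiation, rose in all 3 lines (2.10 ± 0.41, 1.69 ± 0.41 and 2.06 ± 0.41 in SUDHL6, Farage and SUDHL4). SOCS1, which blocks JAK kinases, had 13.3, 16.3 and 6.16 CPM with the inhibitor in SUDHL6, against 2.89, 3.25 and 0.750 with DMSO (1.98 ± 0.30, adjusted p = 2.33e-05), and was not called in Farage (-0.51, adjusted p = 0.145) or SUDHL4 (-0.68, adjusted p = 0.0537) in the shared fit. On each line's own libraries SOCS1 was lower in both (adjusted p = 0.00231 in Farage and 0.0017 in SUDHL4). PTPN6 (SHP-1), a phosphatase of cytokine receptors, also fell in all 3 (-2.68, -2.90 and -3.79).

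**Figure D4:**
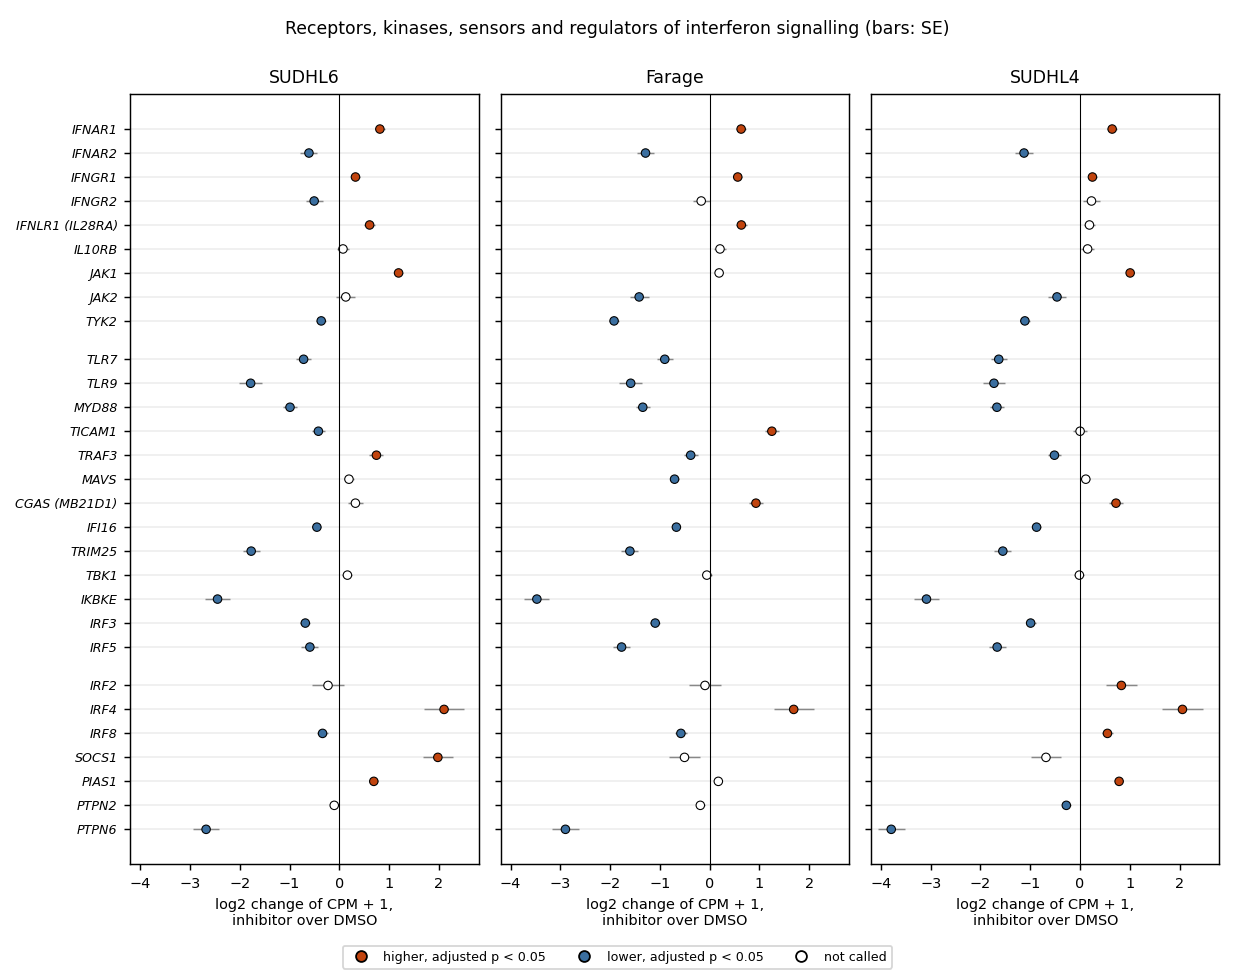
Change of the tested receptor, kinase, sensor and regulator genes, inhibitor over DMSO, on the log2(CPM + 1) scale in each line; points are estimates, bars are their SE, orange is higher, blue is lower and white is not called. IFNAR1 is higher and IFNAR2 lower in all 3 lines and IKBKE, with changes of -2.45, -3.47 and -3.08, is among the lowest points of each.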

How the data were processed

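RNA-seq of 18 libraries was used: 3 lines, 2 treatments and 3 libraries per group, grouped and numbered from the labels. The deposited values are CPM of 23250 gene symbols per library, made by the authors with STAR on hg19 per the submitters' processing notes and from libraries of a TruSeq RNA kit according to the labels, which in 1 sample also name Rsubread. Sources used here give no annotation release, strand setting or tool version, so a gene and an overlapping or antisense neighbour may share reads, and near-identical paralogues such as those of the IFIT, OAS and GBP families may share reads. Listed genes held 74.6 to 80.7% of each CPM divisor. Whole reads were recovered from the CPM (100% of values within 0.01 reads).

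Tests were run in limma 3.58.1 (R 4.3.3), trend included, on log2(CPM + 1), with a pseudocount of 1, 1 mean per group and 12 residual degrees of freedom. The 12769 genes with at least 1 CPM in at least 3 libraries were tested, two-sided, with Benjamini-Hochberg adjustment over all of them at a threshold of 0.05. Contrasts were inhibitor against DMSO in each line and in their mean, the difference of these responses between lines, and DMSO groups between lines. On recovered reads the edgeR 4.0.16 quasi-likelihood test called 8701 genes in SUDHL6, 9160 in Farage and 9130 in SUDHL4, and DESeq2 1.42.0 called 8700, 9198 and 9180. The limma fit was tested on simulated data with known changes. Replicates differed by more than sampling noise (chi-square per degree of freedom 1.82 to 50.2, widest in SUDHL6), so none was counted as a duplicate. Deviations of same-numbered libraries correlated at 0.425 to 0.632 in SUDHL6, at -0.189 to 0.168 in Farage and at -0.0728 to 0.0344 in SUDHL4. The labels do not say whether the numbers pair samples. The part of the shallow replicate 3 in the SUDHL6 values was not tested.

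Values per library are given by a rule: in each line, and in their mean, the 4 largest called changes per direction among members with a mean of at least 2 CPM; per pair of lines the 3 response differences of smallest p and the 3 largest baseline differences; and STAT2, IRF9, IRF1 and IRF7. Other members are shown by role, some of them in full after their values were seen. The members and lists were chosen with earlier results of these data known. A further gene of the pathway was left out of the lists and is not reported here. Promoter sequences are from RefSeq (GRCh38.p14) and were not joined to coordinates of the files. The alternatives tried were median-of-ratios scaling, a pseudocount of 0.25, all 19369 genes with reads, the 9678 genes with a mean of at least 5 CPM, a replicate block (6 residual degrees of freedom), only the compared groups, a fold of at least 1.5, edgeR, DESeq2, each library left out in turn, and both shallow SUDHL6 libraries left out.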

Additional observations from a re-analysis of the deposited data

Results flagged for a closer look

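The inhibitor's effect on these members differed between lines by a test of the difference itself (limma, log2(CPM + 1), the first line's change minus the second's). The causes were not tested. Several calls rest on single libraries or on the setting, as given after the values.

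For SUDHL6 minus Farage the differences were 2.96 for XAF1, 2.79 for GBP4, 1.96 for GBP1, 2.01 for IRF7, 1.67 for IRF9 and 1.25 for IRF1. They were 2.11 for IFIT2, 0.89 for IFI35, 0.68 for MX2, 0.58 for DDX58, 0.55 for SP100 and 0.53 for TRIM22. For SUDHL4 minus Farage they were 2.94 for XAF1, 2.77 for GBP4, 2.11 for GBP1, 1.55 for IRF7, 1.26 for IRF9 and 0.78 for IRF1. They were 1.11 for DHX58, 1.22 for IFI35, 0.68 for STAT2, 1.13 for BST2, 0.63 for TRIM22, 1.41 for IFIT2 and -1.38 for PARP14. For SUDHL6 minus SUDHL4 they were 1.68 for PARP14, 1.23 for PARP9, 1.07 for DHX58, 0.42 for SP100, 0.47 for IRF1 and 0.41 for IRF9. They were -0.54 for STAT2 and -1.01 for BST2. XAF1, GBP4 and GBP1 were almost without reads in SUDHL6 and SUDHL4, and PARP14, PARP9 and DHX58 in SUDHL6, so their differences set a change against an absence. By edgeR the differences of XAF1 and GBP4 in both pairs with Farage, of GBP1 in SUDHL6 minus Farage and of DHX58 in SUDHL6 minus SUDHL4 were not called (adjusted p = 0.1 to 1).

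The TRIM22 difference of SUDHL6 minus Farage was lost without any of 15 of the 18 libraries (adjusted p = 0.0526 to 0.118, differences down to 0.35), and that of SUDHL4 minus Farage without SUDHL4 inhibitor replicate 3 (0.0522). The IFI35 difference of SUDHL6 minus Farage was lost with a pseudocount of 0.25 (0.325, adjusted p = 0.404). It turned negative, without a call, by edgeR (-0.25, adjusted p = 0.636) and DESeq2 (-0.297, adjusted p = 0.634). The DDX58 difference was lost after median-of-ratios scaling (0.48, adjusted p = 0.0534) and with only the compared groups (0.0589). For IFIT2 in SUDHL4 minus Farage, any of 9 single libraries left out ended the call (0.052 to 0.0774). For SUDHL6 minus SUDHL4, the calls were lost without any of 10 libraries for IRF9 (0.0503 to 0.0954), 6 for IRF1 (0.0567 to 0.069) and 8 for BST2 (0.0546 to 0.0799), and those of IRF9 and IRF1 also after median-of-ratios scaling (0.0718 and 0.102).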

How the results depend on the processing

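Of the 10 comparisons, those in single lines kept their split between lower and higher members under most alternatives. Counts of members in this section stand without shares over all genes and are compared only with the main counts. With a mean of at least 5 CPM, which tests fewer members, 3 rose in SUDHL6, 0 rose and 21 fell in Farage, 20 fell in the mean of the lines, and the response was higher in SUDHL6 than in Farage for 14 and in SUDHL4 than in Farage for 13. At baseline 18 members were higher and 3 lower in Farage than in SUDHL6, and 18 and 2 against SUDHL4. A fold of at least 1.5 left 18 lower in the mean. Median-of-ratios scaling gave 2 higher in Farage. Only the compared groups gave 2 higher in Farage, 9 in SUDHL4, and 5 lower in SUDHL4 than in Farage. A pseudocount of 0.25 gave 6 lower in SUDHL6 than in SUDHL4.

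EdgeR gave 2 higher in Farage, 10 in SUDHL4, and 7 higher and 14 lower in the mean; 12 higher in SUDHL6 than in Farage; and 14 higher and 2 lower in SUDHL4 than in Farage. DESeq2 gave 8 higher in SUDHL6, 3 in Farage, 8 in SUDHL4, and 7 higher and 17 lower in the mean, with 12 higher in SUDHL6 than in Farage and 15 higher and 4 lower in SUDHL4 than in Farage. The replicate block gave 1 lower in SUDHL6 than in Farage and 2 in SUDHL4 than in Farage. It gave 5 lower in SUDHL6 than in SUDHL4. In SUDHL6, where same-numbered libraries correlated, it changed 2 member calls (OAS3 and OASL). In Farage and SUDHL4, where those correlations were lower, it added EIF2AK2 (-0.45 and -0.62), SAMD9 in Farage and OAS1 and RSAD2 in SUDHL4. Without both shallow SUDHL6 libraries 2 rose in Farage, 7 in the mean, and 2 were lower in SUDHL6 than in Farage and 3 in SUDHL4 than in Farage.

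With 1 library left out, members that rose numbered 5 to 8 in SUDHL6, 1 in Farage, 5 to 6 in SUDHL4 and 4 to 6 in the mean; those that fell numbered 10 to 13, 29 to 34, 15 to 17 and 30 to 33. Response differences were 25 to 27 higher and 0 to 1 lower (SUDHL6 minus Farage), 23 to 27 and 1 to 3 (SUDHL4 minus Farage), and 7 to 12 and 2 to 4 (SUDHL6 minus SUDHL4). Baseline differences were 30 to 31 higher and 3 to 7 lower (Farage over SUDHL6), 29 to 30 and 4 to 6 (Farage over SUDHL4), and 10 to 12 and 13 to 16 (SUDHL6 over SUDHL4).

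Some single members reversed. In SUDHL6, RSAD2 was -0.34 without DMSO replicate 3. In the mean, edgeR gave 0.91 for GBP2 and 0.17 for PARP9, and DESeq2 0.68 for GBP2, 0.19 for PARP9, 0.10 for GBP1 and 0.46 for USP18. For SUDHL6 minus Farage, edgeR and DESeq2 gave -2.08 and -2.16 for EPSTI1, -0.25 and -0.30 for IFI35, -1.32 and -0.39 for IFI44L and -0.83 and -0.90 for OASL. For SUDHL4 minus Farage they gave -1.54 and -1.62 for IFIH1 (-0.26 with a pseudocount of 0.25) and -0.75 and -0.81 for MX2. For SUDHL6 minus SUDHL4 they gave -1.38 and -1.43 for EPSTI1 and 1.44 and 1.47 for MX2. CMPK2 in SUDHL6 over SUDHL4 was 0.49 without both shallow libraries, and -0.78 to 0.49 with 1 library left out, the highest being without SUDHL6 DMSO replicate 3. The cause was not tested. Depth limits members near 0.362 CPM in the shallowest library.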
